A study of Mus musculus with 4 samples.

Results

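Cycling intermediate progenitors were examined in single-nucleus RNA-seq of the mouse medial neocortex at E16.5. A nucleus was counted as one when its barcode held between 1500 and 60000 transcripts, at least 2 transcripts each of *Eomes*, *Mki67* and *Top2a*, and none of *Gad1* and *Gad2*. The rule found 275 of 29656 retained nuclei, 50 and 99 of them from *Dnmt1* KO embryos and 55 and 71 from Control embryos. The members were therefore chosen by measured counts of these 5 genes, which are given below as a description and entered no test. Throughout, 4 values in a row are *Dnmt1* KO replicates 1 and 2 followed by Control replicates 1 and 2.

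The study compared embryos in which *Dnmt1*, the maintenance DNA methyltransferase, is deleted in somatostatin interneurons with embryos in which it is intact. *Dnmt1* KO embryos were Sst-Cre/tdTomato/Dnmt1 loxP2 and Control embryos Sst-Cre/tdTomato, so that both genotypes carry the Cre driver and the reporter on a C57BL/6J background. Each of the 4 libraries came from 1 embryo, 2 per genotype, and Control replicate 2 is the only library of batch 2 and the only one made of 2 sublibraries, against 8 in the others. Sst-Cre is active in postmitotic somatostatin interneurons and not in cortical progenitors, so a genotype difference in the nuclei described here is a difference in cells whose own *Dnmt1* gene is not the target.

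Intermediate progenitors are the basal progenitors of the cortex. They arise from radial glia in the ventricular zone, switch on the T-box factor *Eomes* (Tbr2), lose contact with the ventricle and usually divide to give excitatory neurons. Radial glia keep their state through Notch signalling, whose effectors *Hes1* and *Hes5* repress proneural genes such as *Neurog2*, while cells that leave that state raise the Notch ligand *Dll1* and signal back to their neighbours. *Mki67* and *Top2a* are made from S phase to mitosis, so a gate on both selects nuclei in the later part of the cycle.

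The retained libraries held 75338095, 172783347, 100311404 and 112751458 transcripts. The median per retained nucleus was 12274, 12383.5, 12401 and 21140, and for the cycling intermediate progenitors 16040.5, 13439, 16620 and 19857. No barcode was shared between libraries, and *Xist* was high in replicate 1 and *Uty* in replicate 2 of each genotype. The doublet caller scrublet marked 14%, 16.2%, 12.7% and 14.1% of the members, against 2.91% to 6.93% of all retained nuclei, so results are also given without these nuclei where that changed them.

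*Eomes* lies at chr9:118307280-118315200 on the plus strand, *Mki67* at chr7:135291513-135318299 and *Top2a* at chr11:98883769-98915062 on the minus strand of GRCm39, all as protein-coding genes. The members held a median of 3 *Eomes* transcripts (range 2 to 20), and 102 of the 275 sat at exactly 2, the lowest count the rule allowed. *Mki67* had a median of 16 transcripts (2 to 71) and *Top2a* of 13 (2 to 52), and only 9 and 7 members were at 2. More members therefore sat at the limit of the rule for *Eomes* than for either cycle gene. In CPM, the counts of a gene scaled to equal transcript totals of the summed members in each library, *Eomes* stood at 199, 196, 186 and 219.

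The cycling nuclei of all libraries were set side by side by their *Eomes* count, with no test, to show what lies just inside and just outside the rule. The summed level of 10 intermediate progenitor genes other than *Eomes* was 140 CPM in the 1714 nuclei with none, 234 CPM in the 206 nuclei with 1, 328 CPM in the 102 with 2, 469 CPM in the 88 with 3 to 4, and 489 CPM in the 85 with 5 or more. The summed level of 16 radial glia genes went the other way, from 6944 CPM at 0 through 5412 CPM at 1 to 3034 CPM at 2 and 2471 CPM at 5 or more. Nuclei with 1 *Eomes* transcript lay between the groups on both lists, whereas the 24 G2/M genes stayed between 4206 and 4517 CPM over all bins. The bins pool libraries in unequal parts: Control replicate 2 gave 221 of 1714 nuclei at 0 and 32 of 85 at 5 or more, and the median depth was 14599 and 19401 transcripts in these bins. The proneural gene *Neurog2* stood at 6.95, 16.7, 21.0, 41.9 and 46.9 CPM in the 5 bins in order. For the cycle genes, the 14 nuclei with 1 *Mki67* transcript, just outside the rule, held 463 CPM of the G2/M genes and 1832 CPM of 20 S phase genes, and the 9 members with 2, just inside, held 549 CPM and 2175 CPM. The 37 nuclei with 1 *Top2a* transcript held 272 CPM of the G2/M genes and the 7 members with 2 held 691 CPM. Nuclei on both sides of the cycle limits thus had little mitotic RNA.

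**Figure D1:**
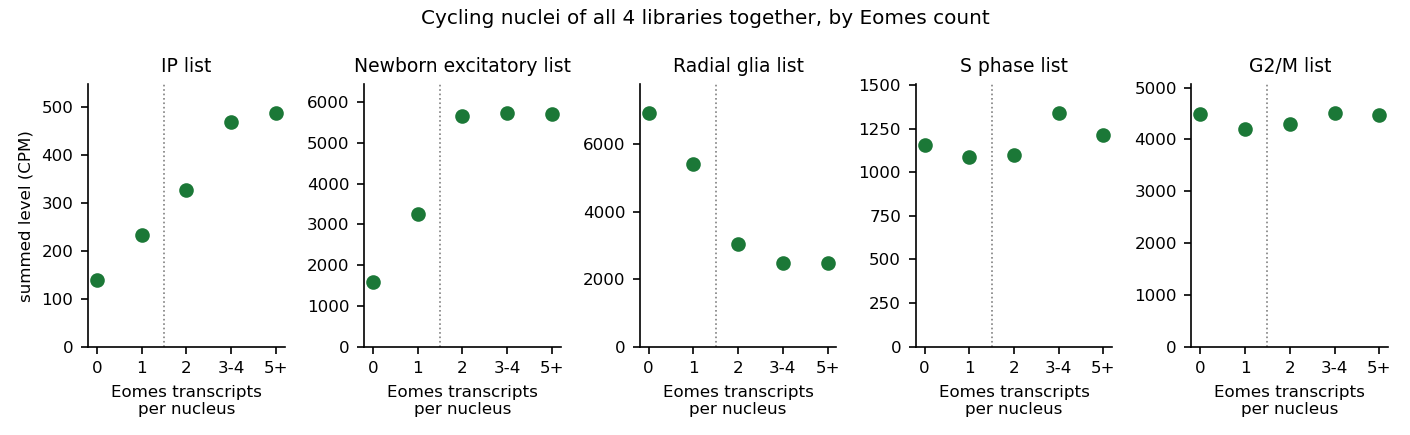
Summed levels of 5 gene lists (y axes, CPM) in cycling nuclei of all 4 libraries pooled, by the number of *Eomes* transcripts per nucleus (x axes); the dotted line is the lower limit of the rule. Intermediate progenitor (IP) and newborn excitatory genes are higher to the right of the line and radial glia genes lower, while S phase and G2/M genes change little.

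The label was checked against markers that the rule did not use. All 10 intermediate progenitor genes on the list were detected, and their summed level was 473, 385, 433 and 447 CPM in the members against 173, 87.8, 121 and 109 CPM in all other retained nuclei. Radial glia genes were also present, at 1886, 2829, 3223 and 2548 CPM against 2223, 2161, 2124 and 2060 CPM in all other retained nuclei. Genes of newborn excitatory neurons stood at 4703, 4409, 6459 and 7036 CPM against 5086, 4731, 5959 and 6763 CPM. RNA of all 3 lists was thus measured in the members. When each nucleus with at least 10000 transcripts was thinned to that number, 64 of 241 members (26.6%, exact 95% binomial interval 21.1 to 32.6) still held a *Neurog2* transcript, against 5.76% of cycling nuclei without *Eomes*. By the same count, 48 of 241 (19.9%) held both *Pax6* and *Sox2*, 58 (24.1%) held the neuronal differentiation factor *Neurod1*, 7 held *Neurod1* beside that pair, and 142 (58.9%) held neither. By library, *Neurod1* was held by 19.1%, 23.7%, 42.3% and 13.6% of the members, and neither by 66.0%, 64.5%, 42.3% and 60.6%. The pooled shares and the intervals cover counting error only and not this spread between libraries.

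Markers of other cells were lower in the members than in all other retained nuclei for interneurons, mural cells and Cajal-Retzius cells, and not for every list. Summed interneuron markers were 66.0, 187, 103 and 60.7 CPM against 1162 to 2736 CPM in all other retained nuclei. The rule excluded nuclei with *Gad1* or *Gad2* from the members and not from the other nuclei. The low interneuron values thus follow in part from the rule and do not check the label. Microglia markers were 6.12 to 6.94 CPM against 6.91 to 22.2 CPM, mural markers 1.03 to 12.2 against 13.1 to 27.2 CPM, endothelial markers 3.47 to 63.5 against 44.7 to 95.2 CPM and Cajal-Retzius markers 18.2 to 58.8 against 462 to 836 CPM, and *Csf1r*, *Lhx1*, *Lhx5*, *Gsx2* and *Isl1* were at 0 in every library. Lateral ganglionic eminence markers summed to 2742 to 4869 CPM against 1743 to 2235 CPM, higher in all 4 libraries and nearly all from *Meis2*, which stood at 2740, 3731, 4330 and 4868 CPM and which cortical cells also express. Oligodendrocyte precursor markers were higher in 3 of 4 libraries, at 1.03, 130, 158 and 52.3 CPM against 6.56, 43.0, 23.1 and 14.6 CPM, and came mostly from *Egfr*, at 0, 101, 127 and 52.3 CPM, with *Pdgfra* at 0, 28.4, 21.7 and 0 CPM and *Olig2* at 1.03, 0, 8.68 and 0 CPM, and with *Olig1* and *Sox10* each at 0 in 3 of 4 libraries. Hippocampal and hem markers were higher in all 4, at 4222, 4624, 2964 and 2900 CPM against 1578 to 3057 CPM, and nearly all of that was *Zbtb20*.

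**Figure D2:**
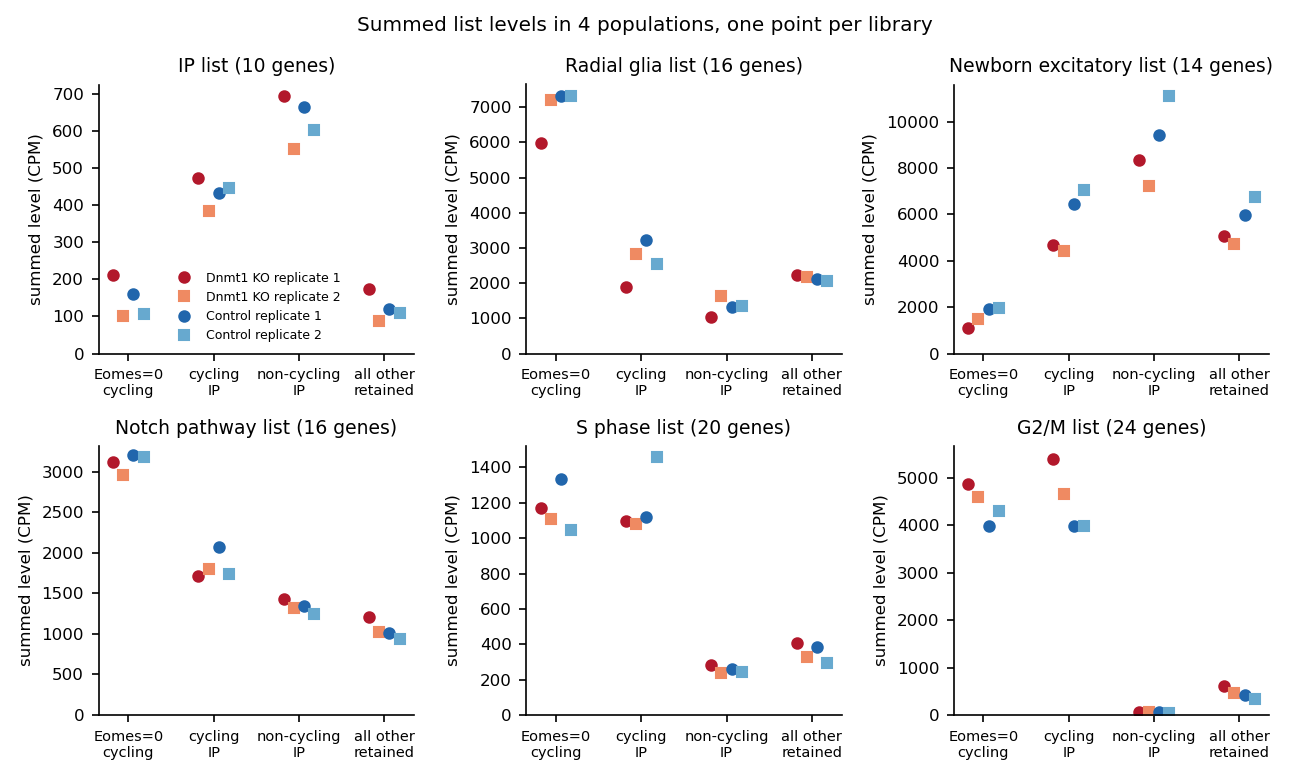
Summed level of 6 gene lists (y axes, CPM) in *Eomes*=0 cycling nuclei, cycling intermediate progenitors (IP), non-cycling IP and all other retained nuclei, with 1 point per library. The cycling IP lie between the other 2 progenitor populations on the radial glia, newborn excitatory and intermediate progenitor lists, and beside the *Eomes*=0 cycling nuclei on the S phase and G2/M lists.

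To ask what separates dividing intermediate progenitors from other dividing cells, the members were compared with 1714 cycling nuclei that held no *Eomes*, *Gad1* or *Gad2* (457, 708, 328 and 221). Counts were summed per library and population and tested with edgeR's quasi-likelihood test with the library as a block. Of 12077 genes tested, 1258 were higher in the cycling intermediate progenitors (10.4%) and 1397 were lower (11.6%) at an adjusted p under 0.05, with a median log2 fold change over all genes of -0.0041. The populations were separated by *Eomes* in the same nuclei, so the p-values do not say whether the nuclei form a class. With the library as a block, they say whether a difference within libraries exceeds its variation from library to library.

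All 9 intermediate progenitor genes that could be tested were higher in the members, with a median log2 fold change of 2.43 and a range of 1.23 to 4.73, and the tenth, *Neurog1*, stood at 0.868 to 1.71 CPM in the members and was too low to test. *Neurog2*, the proneural factor that drives neuronal commitment, stood at 39.2, 26.7, 33.9 and 47.3 CPM in the members and 9.25, 5.75, 8.65 and 4.70 CPM in the comparison nuclei, and the groups did not overlap (log2 fold change 2.43 ± 0.24 SE, edgeR adjusted p 7.1e-05). *Neurod4*, a related bHLH factor, was scarce but showed the largest difference on the list at 6.19, 12.5, 4.34 and 3.34 CPM against at most 0.441 CPM. *Insm1*, a zinc-finger factor needed to form basal progenitors, spread widely among the members at 29.9, 9.10, 16.49 and 39.5 CPM, and its lowest member library was below the highest comparison library at 11.3 CPM (2.03 ± 0.29, edgeR adjusted p 0.00079). *Btg2*, an antiproliferative gene that marks neurogenic divisions, was higher by 1.59 ± 0.22 on the log2 scale, and *Hes6*, which opposes *Hes1*, by 2.07 ± 0.30.

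RNA of newborn excitatory neuron genes was also measured in these dividing nuclei. Of 14 on the list 13 were tested, and 12 were higher than in *Eomes*=0 cycling nuclei, with a median log2 fold change of 1.35. *Neurod1*, a differentiation factor downstream of *Neurog2*, stood at 39.2, 39.8, 45.1 and 16.7 CPM against 5.58, 6.98, 5.83 and 5.26 CPM (2.56 ± 0.24, edgeR adjusted p 5.4e-05). *Unc5d*, a netrin and FLRT receptor of multipolar cells, stood at 3293, 2725, 4451 and 4827 CPM against 442, 685, 1043 and 852 CPM, again with no overlap. The microtubule protein gene *Dcx* was higher by 1.85 ± 0.08 and the deep-layer factor *Tbr1* by 1.35 ± 0.19, while the layer 5 factor *Bcl11b* did not pass (0.47 ± 0.19, edgeR adjusted p 0.12). Without the nuclei called as doublets, 9 of the 13 passed and the list's median was 1.87. The share of called doublets was 5.18% to 9.95% in the comparison nuclei, below the 12.7% to 16.2% of the members, and what part doublets have in the level of the remaining newborn neuron genes was not tested.

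The radial glia list moved as a block in the opposite direction. Of 16 genes tested, 15 were lower in the members, with a median log2 fold change of -1.37, and 15 of 16 were also lower without called doublets. *Hes1*, the Notch effector, stood at 0, 5.69, 2.60 and 2.23 CPM against 37.3, 20.1, 20.1 and 23.3 CPM (-2.96 ± 0.43, edgeR adjusted p 0.00080). The glutamate transporter gene *Slc1a3* stood at 203, 318, 320 and 275 CPM against 665, 803, 777 and 849 CPM, and the lipid-binding protein gene *Fabp7* was lower by 1.64 ± 0.11 on the log2 scale. *Tnc*, an extracellular matrix gene, ranged from 104 to 480 CPM among the members against 958 to 1657 CPM.

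*Pax6* and *Notch1* had the smallest changes of the list among the genes that passed. *Pax6*, a regulator of cortical progenitors that activates *Neurog2* and *Eomes*, stood at 181, 172, 212 and 184 CPM against 272, 200, 285 and 306 CPM, a log2 fold change of -0.44 ± 0.10 (edgeR adjusted p 0.0084). At least 1 *Pax6* transcript was found in 231 of 275 members (84.0%), in 83.7% of the *Eomes*=0 cycling nuclei and in 60.5% of the non-cycling intermediate progenitors. Thinned to 10000 transcripts per nucleus, these shares were 76.3% (184 of 241, exact 95% binomial interval 70.5 to 81.6), 80.2% (78.0 to 82.2) and 54.8%. *Emx2*, a patterning factor of the medial cortex, was not past the threshold at -0.48 ± 0.22. Relative to other dividing nuclei the members were therefore low in most of the radial glia list, while most of them held *Pax6*.

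**Figure D3:**
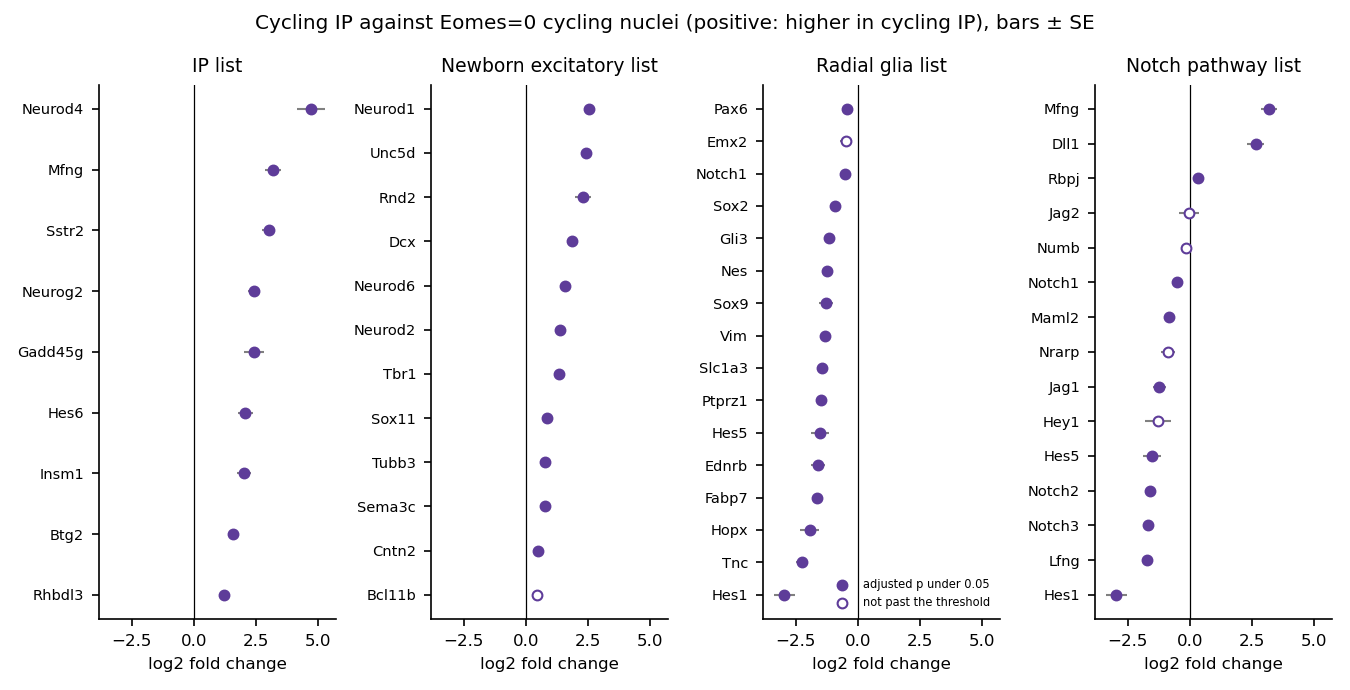
Log2 fold changes between cycling intermediate progenitors and *Eomes*=0 cycling nuclei (x axes, positive when higher in cycling IP, bars ± SE) for tested genes of 4 lists; filled points have an edgeR adjusted p under 0.05. All intermediate progenitor and newborn excitatory genes shown lie right of 0, 15 of 16 radial glia genes lie significantly left of it, and the Notch list is split.

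Genes of the Notch list moved in both directions. The ligand gene *Dll1* stood at 52.6, 27.9, 24.3 and 25.1 CPM in the members against 2.94, 5.47, 7.15 and 5.08 CPM, with no overlap (2.66 ± 0.34, edgeR adjusted p 0.00036). *Mfng*, which encodes a fringe enzyme that modifies Notch receptors, stood at 62.9, 41.5, 58.2 and 85.7 CPM against 3.82 to 12.4 CPM (3.21 ± 0.32), while its relative *Lfng* was lower by 1.73 ± 0.17. The receptor genes were all lower, *Notch1* by 0.51 ± 0.08, *Notch2* by 1.59 ± 0.09 and *Notch3* by 1.68 ± 0.12. The ligand gene *Jag1* was lower by 1.22 ± 0.26 and the effector gene *Hes5* by 1.53 ± 0.36, and the transcriptional partner *Rbpj* was slightly higher at 0.35 ± 0.09. In all, 15 of 16 Notch genes were tested, 3 were higher and 8 lower, and the median log2 fold change was -0.87.

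The 10 genes with the largest higher levels among those of at least 50 CPM were *Kif26b*, *Rbfox3*, *Slc17a6*, *Mfng*, *Thrb*, *Igsf21*, *Clvs1*, *Myt1*, *Scrt2* and *Lrrn3*. *Kif26b*, which encodes an atypical kinesin and lies at chr1:178356690-178766765 on the plus strand of GRCm39, stood at 1560, 767, 1124 and 976 CPM against 88.0, 101, 97.6 and 64.9 CPM (3.67 ± 0.18, edgeR adjusted p 2.2e-06). *Rbfox3*, the gene of the neuronal nuclear antigen NeuN, stood at 1817, 1051, 1043 and 1167 CPM against 95.6 to 165 CPM, and *Slc17a6*, the vesicular glutamate transporter VGLUT2, at 237, 165, 245 and 213 CPM against 12.9 to 33.5 CPM. Both are textbook genes of excitatory or mature neurons and were measured here in nuclei selected for *Mki67* and *Top2a*. *Myt1* and *Scrt2*, zinc-finger factors of early neuronal differentiation, were higher by 2.94 ± 0.13 and 2.93 ± 0.23.

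The 10 genes with the largest lower values were *Dlc1*, *Htra1*, *Itga1*, *Ccdc80*, *Emid1*, *Pde8b*, *Pappa*, *Ets1*, *Daam2* and *Prkg1*. Some of these are also genes of vascular and meningeal cells. Summed mural markers were 23.3, 83.7, 63.8 and 53.0 CPM in the comparison nuclei against 1.03, 7.96, 12.2 and 2.78 CPM in the members. Endothelial markers were 24.4, 218, 118 and 61.3 CPM against 24.7, 23.3, 3.47 and 63.5 CPM. They were higher in the comparison nuclei only in *Dnmt1* KO replicate 2 and Control replicate 1. Keeping only comparison nuclei with at least 1 *Pax6* transcript (1434 of 1714) turned *Dlc1* from -2.72 to 0.22 and the endothelial-lineage factor *Ets1* from -2.28 to 1.73 (edgeR adjusted p 0.040), took *Itga1* from -2.42 to -0.60 and left *Pde8b* at -0.41, no longer past the threshold. The other 6 genes stayed lower and past the threshold. With that restriction 15 of 15 radial glia genes were lower, 13 of 13 newborn excitatory genes were higher and 9 of 9 intermediate progenitor genes were higher. The restriction applied to the comparison nuclei alone and not to the members, of which 231 of 275 held *Pax6*. As *Pax6* is itself on the radial glia list, the restriction can move the lists in these directions, and the counts are a description.

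Few cell cycle genes passed the test between the dividing populations. The 24 G2/M genes summed to 5401, 4649, 3973 and 3984 CPM in the members and 4874, 4595, 3990 and 4289 CPM in the *Eomes*=0 cycling nuclei, and 1 of 24, the centromere protein gene *Cenpf*, passed the test with a small lower value (-0.23 ± 0.07, edgeR adjusted p 0.042). The 20 S phase genes summed to 1098, 1079, 1117 and 1460 CPM against 1174, 1107, 1338 and 1046 CPM. Only *E2f1*, a factor that drives S phase entry, passed, at 21.7, 39.2, 41.7 and 55.7 CPM against 19.7 to 23.1 CPM (0.95 ± 0.20, edgeR adjusted p 0.0066). Both populations were gated on the same 2 cycle genes, so these values describe how they were chosen.

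Of 14 regulators around G1 and cycle exit tested, 5 were higher in the members, among them *Cdk6* at 610, 662, 621 and 926 CPM against 337, 335, 424 and 463 CPM (0.90 ± 0.08, edgeR adjusted p 5.7e-05), *Cdk4* at 0.55 ± 0.11 and the retinoblastoma gene *Rb1* at 0.49 ± 0.08. *Cdk4* and *Cdk6* are the kinases that, with D-type cyclins, inactivate the *Rb1* protein. *Btg1* was lower by 0.68 ± 0.15, and *Ccnd2*, the D-type cyclin gene of cortical progenitors, was not past the threshold at -0.29 ± 0.10 (edgeR adjusted p 0.074). The other 2 of the 5, *Btg2* and *Gadd45g*, are also on the intermediate progenitor list.

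Among 10 genes of DNA methylation, *Dnmt1* itself did not pass, at 128, 93.9, 127 and 144 CPM in the members and 132, 103, 133 and 113 CPM in the others (0.08 ± 0.10, edgeR adjusted p 0.62). *Dnmt3a*, a de novo methyltransferase, was lower in the members at 70.1, 75.7, 85.1 and 75.7 CPM against 227, 145, 207 and 195 CPM, with no overlap (-1.25 ± 0.12, edgeR adjusted p 5.6e-05). Of the TET genes, whose products oxidise methylcytosine, *Tet1* was lower by 0.54 ± 0.12 and *Tet2* and *Tet3* were higher by 0.55 ± 0.11 and 0.28 ± 0.08. Of 14 receptor genes for ephrins and neurexins 5 were higher and 4 lower, led by *Epha3* at 1195, 1665, 1914 and 1662 CPM against 157, 459, 534 and 283 CPM (2.34 ± 0.17), while the values of *Epha4* (0.12 ± 0.07) and of the neuroligin gene *Nlgn1* (-0.27 ± 0.15) did not pass.

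On the marker lists of other cells the members were lower or not past the test. All 4 tested interneuron markers were lower, as were both tested mural markers, *Pdgfrb* and *Rgs5*. *Kdr* of 3 endothelial markers, *Cx3cr1* of 2 microglia markers, *Reln* of 2 Cajal-Retzius markers and *Lmx1a* and *Wnt8b* of 4 hippocampal or hem markers were also lower. *Meis2*, the single testable lateral ganglionic eminence marker, and both tested oligodendrocyte precursor markers did not pass, and the choroid plexus markers were too low to test.

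The members were next compared with 1636 intermediate progenitors that were not cycling, with at least 2 *Eomes* transcripts and no *Mki67*, *Top2a*, *Gad1* or *Gad2* (486, 502, 332 and 316). This asks what changes within the *Eomes* population between dividing and non-dividing nuclei. Of 11239 genes tested with edgeR's quasi-likelihood test, 2082 were higher in the cycling nuclei (18.5%) and 1689 lower (15%), with a median over all genes of -0.0055. The non-cycling nuclei held fewer transcripts, with medians of 10493.5, 9586.5, 10345.5 and 15506.

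Because *Mki67* and *Top2a* set this contrast, the mitotic genes are given as a description. The 24 G2/M genes summed to 3973 to 5401 CPM in the cycling nuclei and 49.7 to 72.8 CPM in the non-cycling ones, and all 24 were higher, by 3.51 to 8.28 on the log2 scale. *Cdk1*, the kinase that drives entry into mitosis, stood at 108, 93.3, 83.3 and 81.8 CPM against 1.08, 1.30, 1.501 and 0.7998 CPM. *Kif4*, a chromosome-bound kinesin, stood at 452, 363, 339 and 328 CPM against 0.815 to 1.79 CPM. The other genes at the top of this comparison, *Depdc1a*, *Pif1*, *Cdc25c*, *Depdc1b*, *Iqgap3*, *Kif14*, *Ndc80*, *Ncapg* and *Kif2c*, are likewise mitotic genes or close to absent from the non-cycling nuclei, *Depdc1a* at 77.4 to 156 CPM against at most 0.320 CPM.

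The promoters of these genes are shown because they moved together and because many mitotic promoters are known to hold CCAAT boxes, the binding motif of the factor NF-Y. In the 250 bases before the start site given by RefSeq on GRCm38.p6 (an earlier build than that of the counts), CCAAT or its reverse complement ATTGG was found at least once in 17 of 21 matched G2/M promoters (81.0%) and in 34.5% of all 27025 promoters. At least 2 occurred in 11 of 21 (52.4%) against 10.5%, and at least 3 in 4 of 21 (19.0%) against 2.98%. The share with at least 1 was 10 of 17 (58.8%) among S phase genes, 9 of 14 (64.3%) among radial glia genes and 3 of 7 (42.9%) among intermediate progenitor genes. At least 2 occurred in 5 of 17 (29.4%), 5 of 14 (35.7%) and 1 of 7 (14.3%) of these, and at least 3 in 1, 1 and 0. Shares above that of all promoters were thus not limited to G2/M genes. The 4 G2/M promoters with at least 3 follow from the first to the last box with 12 bases on each side. They are printed 5′ to 3′ on the strand of the gene, with the boxes in capitals. A match describes letters in a window and is not a measured binding site.
*Ube2c*, chr2:164769689-164769888, plus strand: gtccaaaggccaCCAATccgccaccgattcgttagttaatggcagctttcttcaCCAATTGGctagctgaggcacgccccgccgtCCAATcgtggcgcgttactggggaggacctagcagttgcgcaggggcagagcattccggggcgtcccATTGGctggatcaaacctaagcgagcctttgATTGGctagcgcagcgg
*Hmmr*, chr11:40733441-40733621, minus strand: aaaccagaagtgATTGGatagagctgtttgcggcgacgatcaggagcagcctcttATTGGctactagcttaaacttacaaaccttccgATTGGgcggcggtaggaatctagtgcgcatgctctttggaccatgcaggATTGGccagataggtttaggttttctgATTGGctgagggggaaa
*Ccnb2*, chr9:70421559-70421653, minus strand: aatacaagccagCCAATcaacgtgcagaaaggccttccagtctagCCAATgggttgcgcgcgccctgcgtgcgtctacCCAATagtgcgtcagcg
*Cdk1*, chr10:69352944-69353132, minus strand: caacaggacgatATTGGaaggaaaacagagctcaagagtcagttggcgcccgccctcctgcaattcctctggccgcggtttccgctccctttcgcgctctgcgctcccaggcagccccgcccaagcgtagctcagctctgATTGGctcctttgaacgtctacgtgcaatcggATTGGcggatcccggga

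In *Ccnb2*, the cyclin B2 gene, the 3 boxes began 87 to 21 bases before the start and were 33 bases apart, and in *Hmmr*, a spindle-associated protein gene, 5 boxes spanned 172 to 20 bases before it. *Ube2c*, the ubiquitin-conjugating enzyme of the anaphase-promoting complex, held 6, and 2 of these overlap. The levels of these genes in the members were 47.4, 47.2, 52.1 and 38.4 CPM for *Ccnb2*, 179, 169, 94.6 and 100 CPM for *Hmmr* and 46.4, 42.1, 31.3 and 26.7 CPM for *Ube2c*. All 4 were higher than in non-cycling intermediate progenitors, *Ccnb2* by the least on the whole G2/M list.

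S phase genes were not counted by the rule but go with the same gate, and their values are likewise a description. Of these, 17 of 18 tested were higher in cycling than in non-cycling intermediate progenitors, with a median log2 fold change of 2.47. *Mcm5*, a subunit of the replicative helicase, stood at 29.9, 27.9, 43.4 and 45.1 CPM against 5.74, 5.87, 6.01 and 2.56 CPM (2.85 ± 0.29, edgeR adjusted p 4.2e-05). *Ccne2*, a cyclin of the G1 to S transition, was higher by 3.29 ± 0.24. The pocket protein gene *Rbl1* stood at 201, 139, 155 and 168 CPM against 17.4 to 24.5 CPM (3.04 ± 0.12), and the inhibitor gene *Cdkn2c* at 17.3 to 27.8 CPM against 0.717 to 1.92 CPM. *Cdkn1c*, an inhibitor tied to cycle exit, was lower in the cycling nuclei by 1.34 ± 0.43 (edgeR adjusted p 0.037).

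The methylation genes followed the cycle in part. *Dnmt1*, which copies methylation marks behind the replication fork, stood at 128, 93.9, 127 and 144 CPM in cycling and 39.6, 29.0, 45.0 and 45.0 CPM in non-cycling intermediate progenitors, with no overlap (1.61 ± 0.09, edgeR adjusted p 5.6e-07). Its partner *Uhrf1*, which recognises hemimethylated DNA, stood at 27.8, 33.0, 53.0 and 62.4 CPM against 2.69 to 3.50 CPM (3.78 ± 0.23). *Dnmt3a* and *Dnmt3b* were higher by 0.60 ± 0.11 and 0.63 ± 0.19, and *Tet1* and *Tet2* were lower by 0.38 ± 0.11 and 0.37 ± 0.08.

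Of 9 intermediate progenitor genes, *Insm1* was higher in the cycling nuclei (1.23 ± 0.19, edgeR adjusted p 0.00087), and *Mfng*, *Gadd45g*, *Sstr2* and *Rhbdl3* were lower by 0.53 to 0.99. *Neurog2* stood at 39.2, 26.7, 33.9 and 47.3 CPM in cycling and 50.4, 41.1, 50.3 and 41.3 CPM in non-cycling nuclei, which overlap (-0.34 ± 0.15, edgeR adjusted p 0.12). The list's median was -0.53.

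Radial glia genes were higher and newborn neuron genes lower in the cycling nuclei. Of 13 radial glia genes tested 12 were higher, with a median of 1.10, among them *Sox2* at 16.497, 18.2, 26.0 and 29.0 CPM against 6.09 to 10.5 CPM (1.24 ± 0.19) and *Pax6* at 0.63 ± 0.08. Of 14 newborn excitatory genes 9 were lower and none higher, with a median of -0.63. *Dcx* stood at 368, 430, 470 and 484 CPM against 762, 660, 770 and 730 CPM (-0.76 ± 0.08), and *Neurod1* was lower by 1.09 ± 0.24, whereas *Neurod6* did not pass at -0.12 ± 0.10. Without called doublets, 11 of 13 radial glia genes were higher and 11 of 14 newborn genes lower.

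The Notch list again split, now the other way for the receptors. Of 12 tested, 6 were higher in cycling than in non-cycling intermediate progenitors, including *Notch2* at 179, 188, 240 and 175 CPM against 34.8 to 63.6 CPM (1.98 ± 0.14), *Lfng* (3.34 ± 0.36) and *Jag1* (1.38 ± 0.31). *Mfng* and *Rbpj* were lower. *Dll1*, at 24.3 to 52.6 CPM against 20.2 to 40.7 CPM, did not pass (0.12 ± 0.15, edgeR adjusted p 0.59). Of 14 ephrin and neurexin receptor genes 9 were lower, *Epha7* by 0.58 ± 0.08, and *Ephb3* alone was higher.

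Among the genes lowest in cycling relative to non-cycling nuclei were *Reln*, *St18*, *Plch2*, *Tgfbr3*, *Stxbp5l*, *Entrep2*, *Cacna2d3*, *Lingo2* and *Stat3*. *Reln*, the secreted glycoprotein of Cajal-Retzius cells, stood at 58.8, 26.7, 16.49 and 24.5 CPM against 577, 1201, 170 and 352 CPM (-4.16 ± 0.30, edgeR adjusted p 3.5e-06). *Eomes* is also expressed in the Cajal-Retzius lineage, and the summed markers of those cells were 178.7 to 1264 CPM in the non-cycling nuclei and 18.2 to 58.8 CPM in the members, and their part in the comparison was not tested.

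On the remaining lists, the hippocampal or hem genes *Prox1*, *Lmx1a* and *Zbtb20* were lower in cycling nuclei (3 of 4 tested), *Meis2* and *Egfr* were higher, and 1 of 3 tested interneuron markers was higher. No endothelial marker passed, and microglia, mural and choroid plexus markers were too low to test.

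The genotypes were compared first by the abundance of cycling intermediate progenitors. They made up 0.887% of the retained nuclei in *Dnmt1* KO replicate 1 (exact 95% binomial interval 0.659 to 1.17), 0.821% (0.667 to 0.998) in replicate 2, 0.780% (0.588 to 1.01) in Control replicate 1 and 1.45% (1.13 to 1.82) in Control replicate 2. Control replicate 2 stood apart, and after thinning every nucleus with at least 10000 transcripts to that number and applying the rule again the shares were 0.871%, 0.476%, 0.843% and 0.863%. The mean difference, *Dnmt1* KO minus Control, was -0.260 points by the original counts (0.854 ± 0.047 against 1.11 ± 0.47, SD, n = 2 each, 2-sided exact permutation p 1), and it turned to 0.0731 points without Control replicate 2. With 2 libraries per genotype the smallest p this test can give is 0.333.

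Among cycling nuclei with either at least 2 or no *Eomes* transcripts, the members were 9.86% (7.41 to 12.8) in *Dnmt1* KO replicate 1, 12.3% (10.1 to 14.7) in replicate 2, 14.4% (11.0 to 18.3) in Control replicate 1 and 24.3% (19.5 to 29.7) in Control replicate 2. The genotypes did not overlap, by 8.27 points in the means and with the smallest possible p of 0.333 (exact permutation test), but the intervals of *Dnmt1* KO replicate 2 and Control replicate 1 did. Thinned to 10000 transcripts per nucleus, the shares were 8.31%, 6.48%, 11.9% and 14.7%, the genotypes again did not overlap, and the difference was -5.88 points. Thinning matched transcripts and not reads, of which there were 2.54 per transcript in Control replicate 2 and 1.64 to 1.65 in the others, and 4405 of 4905 nuclei of that library were deep enough to be kept, against 3790 of 5640, 7990 of 12064 and 4627 of 7047. Without Control replicate 2 the difference was -3.30 points, and without Control replicate 1 it was -13.25 points. The share among these cycling nuclei depends on both counts. The *Eomes*=0 cycling nuclei were 457 of 5640, 708 of 12064, 328 of 7047 and 221 of 4905 retained nuclei. The share of the members among retained nuclei overlapped between genotypes. Control replicate 2 is the deepest library and the only one of batch 2, and genotype and batch cannot be told apart in its value. The share of cycling among cycling and non-cycling intermediate progenitors was 9.33%, 16.47%, 14.2% and 18.3% (-3.38 points, exact permutation p 0.667, and 0.193 points without *Dnmt1* KO replicate 1), and 12.8%, 16.0%, 19.2% and 12.8% after thinning, so the genotypes overlapped.

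**Figure D4:**
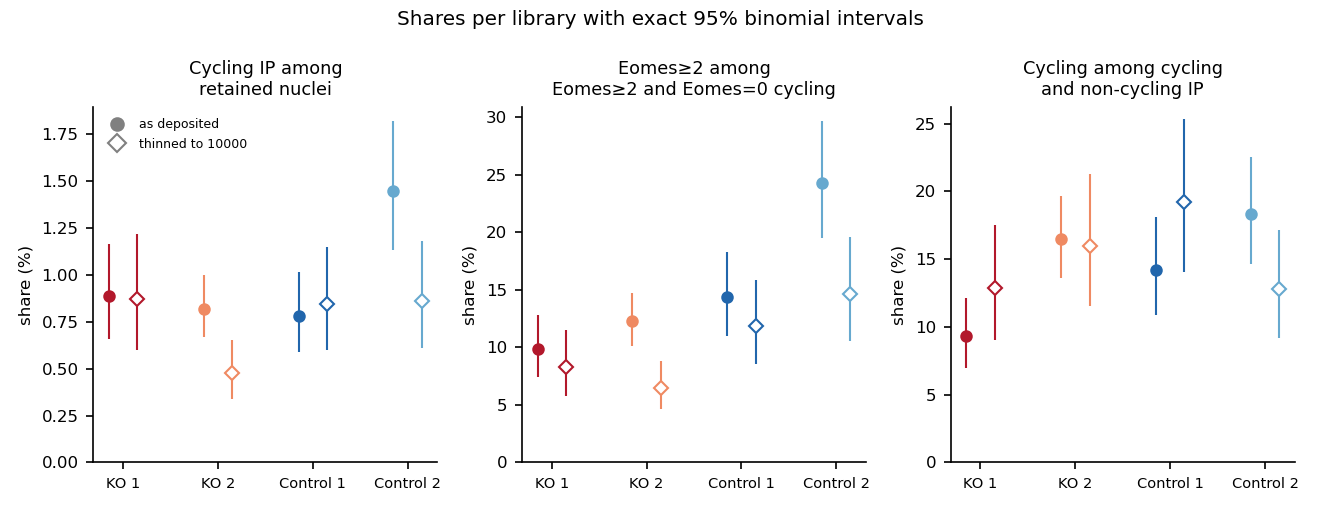
Share of cycling intermediate progenitors (IP) per library (y axes, percent), as deposited (filled) and after thinning to 10000 transcripts (open). Bars are exact 95% binomial intervals. The shares are among retained nuclei, among cycling nuclei with at least 2 or no *Eomes* transcripts, and among cycling and non-cycling IP. Only the middle panel separates the 2 genotypes, with the largest share in Control replicate 2, which moves from 24.3% to 14.7% on thinning.

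*Dnmt1*, the deleted gene, stood at 128, 93.9, 127 and 144 CPM in the members, a log2 fold change of -0.26 that did not pass (edgeR adjusted p 0.85). Since progenitors are not the cells in which the Cre acts, this value does not check the labels. Among 9778 genes tested by genotype in the members, 2 were higher in *Dnmt1* KO at an adjusted p under 0.05 (0.0205%) and 0 were lower (0%), while 644 had an unadjusted p under 0.05. DESeq2 on the same sums called 27.

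The first of these, *Tmem132c*, encodes a single-pass transmembrane protein and lies at chr5:127318850-127642857 on the plus strand of GRCm39. It stood at 175, 175, 35.6 and 35.6 CPM (log2 fold change 2.34 ± 0.17, edgeR adjusted p 0.0072). These levels rest on 170, 308, 41 and 64 transcripts in 17, 29, 7 and 8 nuclei, and single nuclei held up to 56, 54, 29 and 51 of them. Nuclei called as doublets held 37.6%, 41.6%, 0% and 6.25% of the transcripts, and without these nuclei the log2 fold change was 1.82 and the adjusted p 0.061. The same gene stood at 174, 281, 110 and 109 CPM in *Eomes*=0 cycling nuclei and 216, 226, 88.1 and 68.5 CPM in non-cycling intermediate progenitors, populations from the same 4 libraries in which it did not pass. With the replicate number as a block, which here also separates libraries high in *Xist* from those high in *Uty*, its adjusted p was 0.060 (log2 fold change 2.34), and with batch as a covariate 0.22 (2.31).

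The second, *Mgat4c*, belongs to a family of N-acetylglucosaminyltransferases of N-glycan branching and lies at chr10:101517348-102228383 on the plus strand. It stood at 80.4, 69.4, 8.68 and 3.90 CPM (3.68 ± 0.37, edgeR adjusted p 0.041). Of its 78, 122, 10 and 7 transcripts, 58, 30, 5 and 3 came from a single nucleus in each library, and 93.6%, 80.3%, 70% and 57.1% came from nuclei called as doublets. Without those nuclei it fell below the minimum count for a test. In the *Eomes*=0 cycling nuclei it was at 52.4, 53.9, 25.4 and 34.8 CPM, higher in both *Dnmt1* KO libraries but not past the threshold (log2 fold change 0.85). In the non-cycling intermediate progenitors it was at 54.8, 84.0, 92.1 and 74.5 CPM, where the genotypes overlapped. Its adjusted p was 0.087 with the replicate block and 0.42 with batch as a covariate. Neither gene was called without Control replicate 1 or 2, although the log2 fold changes were 2.37 and 2.31 for *Tmem132c* and 4.30 and 3.10 for *Mgat4c*. With a library left out 1 genotype holds a single sample, which is assumed to vary like the samples of the other genotype.

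**Figure D5:**
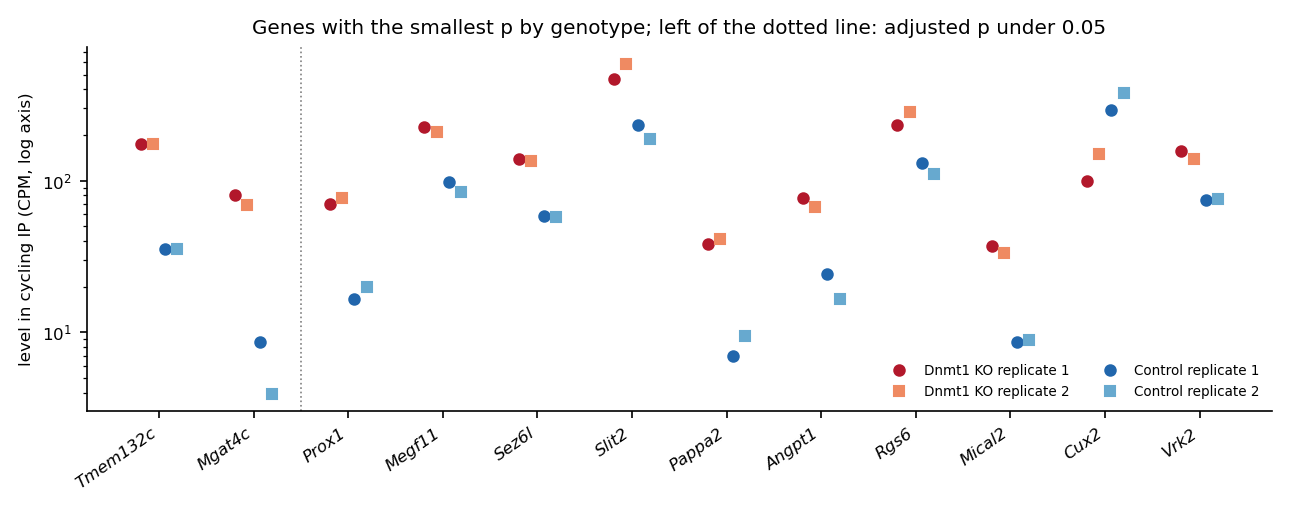
Level in cycling intermediate progenitors (y axis, CPM, log scale), 1 point per library, of the 2 genes past an adjusted p of 0.05 by genotype (left of the dotted line) and of the 10 with the next smallest p. The genes were chosen by p on these same values, so points that do not overlap between genotypes follow from that choice. *Cux2* is the only one lower in *Dnmt1* KO.

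The 10 genes with the next smallest p, none past the threshold, were *Prox1*, *Megf11*, *Sez6l*, *Slit2*, *Pappa2*, *Angpt1*, *Rgs6*, *Mical2*, *Cux2* and *Vrk2*. *Prox1*, a homeodomain factor of the dentate granule lineage, stood at 70.1, 76.8, 16.49 and 20.04 CPM (2.03 ± 0.25, edgeR adjusted p 0.11), and its companion on the hippocampal list *Zbtb20* at 4147, 4518, 2945 and 2878 CPM (0.61 ± 0.18, edgeR adjusted p 0.52). *Slit2*, a repulsive guidance ligand, stood at 469, 590, 231 and 189 CPM (1.38 ± 0.19, edgeR adjusted p 0.12). *Cux2*, an upper-layer and intermediate progenitor factor, was the one gene of the 10 with lower values in *Dnmt1* KO, at 98.98, 150, 291 and 380 CPM (-1.38 ± 0.22, edgeR adjusted p 0.17). Of the *Rgs6* transcripts, 76.2% to 96.5% came from called doublets. Of the *Prox1* transcripts 61.8%, 27.4%, 5.26% and 5.56% did, and 34 of 68 in *Dnmt1* KO replicate 1 came from 1 nucleus. Without called doublets the log2 fold change of *Prox1* was 1.5 (edgeR adjusted p 0.40), of *Mical2* 1.25 in place of 2.03 (edgeR adjusted p 0.54) and of *Rgs6* 0.44 in place of 1.13 (edgeR adjusted p 0.89), while the other 7 kept their direction and none passed.

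Of the genes on the lists, 0 passed by genotype (DESeq2 called 1, *Prox1*). The G2/M list leaned one way: 23 of 24 genes had a higher value in *Dnmt1* KO, with a median log2 fold change of 0.36, against 48.6% of all genes tested and a median of -0.011. Its summed level was 5401, 4649, 3973 and 3984 CPM, higher in both *Dnmt1* KO libraries than in either Control library, with *Hmmr* at 0.87 ± 0.15 (edgeR adjusted p 0.23). Of 19 S phase genes 16 had a lower value, with a median of -0.47. The summed level of that list was 1098 and 1079 against 1117 and 1460 CPM, lower in both *Dnmt1* KO libraries but close at 1098 and 1117 CPM. Newborn excitatory genes had lower values in 10 of 13 (median -0.34), at 4703 and 4409 against 6459 and 7036 CPM, and radial glia genes in 10 of 13 (median -0.27), with sums that overlapped at 1886, 2829, 3223 and 2548 CPM. Intermediate progenitor genes had lower values in 6 of 8 (median -0.38), with sums that overlapped at 473, 385, 433 and 447 CPM. These are counts of signs over genes that share libraries, and no test of a list was made.

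Values in the other populations of the same libraries are given beside these. In all other retained nuclei, which include the populations that follow, G2/M genes summed to 607, 460, 427 and 347 CPM. Newborn excitatory genes summed to 5086, 4731, 5959 and 6763 CPM, and hippocampal or hem markers to 3057, 2322, 1692 and 1578 CPM. These sums did not overlap between genotypes, nor did radial glia genes at 2223, 2161, 2124 and 2060 CPM. S phase sums overlapped at 407, 330, 383 and 295 CPM, and intermediate progenitor sums at 173, 87.8, 121 and 109 CPM. In *Eomes*=0 cycling nuclei 24 of 24 G2/M genes had higher values in *Dnmt1* KO (median 0.23), 15 of 20 S phase genes lower values and 12 of 13 newborn excitatory genes lower values. Radial glia genes there had lower values for 13 of 16 (median -0.12). Their sums were 5972, 7197, 7328 and 7303 CPM, nearest between genotypes at 7197 and 7303 CPM. In non-cycling intermediate progenitors 13 of 14 newborn excitatory genes had lower values (median -0.41) and 10 of 13 G2/M genes higher values (median 0.30), whereas 11 of 18 S phase genes had higher values (median 0.04) and radial glia genes were split, 6 higher and 7 lower. Of all genes tested, 49.2% had higher values in *Dnmt1* KO in the *Eomes*=0 cycling nuclei and 48.5% in the non-cycling intermediate progenitors. Hippocampal or hem markers, the list of *Prox1* and *Zbtb20*, had higher values in *Dnmt1* KO for 2 of 2 genes tested in the members (median 1.32), 5 of 5 in *Eomes*=0 cycling nuclei (median 0.63) and 4 of 4 in non-cycling intermediate progenitors (median 1.39, all 4 at an unadjusted p under 0.05). Their sums were 4908, 4924, 4055 and 4131 CPM in the *Eomes*=0 cycling nuclei and 5886, 5803, 4163 and 4085 CPM in the non-cycling intermediate progenitors. Cajal-Retzius markers had higher values for 1 of 1, 2 of 2 and 4 of 4 genes tested in the same order. The part of these cells in the *Prox1* and *Zbtb20* values was not tested. No gene was called by genotype in the *Eomes*=0 cycling nuclei or the non-cycling intermediate progenitors (edgeR, 0 of 13662 and 0 of 12962, with 656 and 843 at an unadjusted p under 0.05).

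Whether the genotype difference itself differed between the members and the *Eomes*=0 cycling nuclei was tested as an interaction, and 0 of 12077 genes passed in edgeR, with 434 at an unadjusted p under 0.05 and a smallest adjusted p of 0.14. The genes with the smallest p, none past the threshold, were *St6galnac5*, *Sgcz*, *Arhgap6*, *Mgat4c*, *Plxdc2*, *Opcml*, *Rgs6*, *Gsg1l*, *Prex2* and *Ldlrad4*. *St6galnac5*, a sialyltransferase gene, stood at 7.22, 57.5, 181 and 127 CPM in the members and 30.1, 165, 163 and 73.7 CPM in the *Eomes*=0 cycling nuclei. The interaction for *Mgat4c* was 2.87 ± 0.43 on the log2 scale with an edgeR adjusted p of 0.22. In simulated data of this layout the test recovered 20% of genes with a 2-fold and 90% with a 4-fold difference. Every simulated gene had the same dispersion, set in advance and not estimated from these data. Genes whose counts come from few nuclei were therefore not represented, and recovery in the real data can be lower. A difference of 2-fold or less was therefore mostly not detectable with these libraries.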

How the data were processed

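Nuclei from frozen medial neocortex were isolated on a sucrose gradient and prepared with the Parse Evercode WT split-pool kit. The authors processed reads with Parse Trailmaker against GRCm39 and deposited transcript counts per gene and barcode, collapsed by molecular identifier. The submitters' processing notes also name R 4.4.1 and Seurat 5.0.1.9001. The annotation release is not given in the sources used here.

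Members and gene lists were chosen with earlier results of these data known. Barcodes outside 1500 to 60000 transcripts were left out. Deposited counts were summed per library and population, filtered with filterByExpr, scaled with TMM and tested with edgeR 4.0.16 (glmQLFit and glmQLFTest, R 4.3.3, Benjamini-Hochberg over all genes tested), with the library as a block between populations and no covariate between genotypes. The 5 gate genes were not tested. Some genes are not reported here. Each library was 1 embryo, so genotype p-values rest on the spread between 2 embryos per genotype. Those between populations rest on differences within the 4 libraries. Named genes were the 10 largest changes each way past an adjusted p of 0.05, alike in direction in all 4 libraries and with at least 50 CPM in the higher population, list members that passed or were most abundant, and by genotype those past the threshold and the 10 next by p with at least 20 CPM. Doublets were kept and called with scrublet in scanpy 1.11.5 at an expected rate of 0.05 for an alternative. Shares were compared by exact permutation in scipy 1.17.1. CPM values are scaled to the transcripts of the summed population and not to gene length. The test was checked on simulated counts in which 38% of 2-fold and 98% of 4-fold genotype differences were recovered among 9778 genes. Every simulated gene had the same dispersion, set in advance and not estimated from these data, and no library effect was simulated. The changed genes were drawn from those above 20 CPM. Recovery of genes whose counts come from few nuclei was not simulated and can be lower.

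Replicate numbers did not pair libraries (r = 0.0127 over 9778 genes between the replicate differences of the genotypes), apart from sharing which of *Xist* and *Uty* is high. Alternatives were another normalization, no count filter, DESeq2 1.42.0, each library left out, doublets removed, gates of at least 1 or 3 counts, a range on reads, a window of 10000 to 30000 transcripts, *Pax6* in the comparison nuclei, no library block, a replicate block and batch as a covariate.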

Additional observations from a re-analysis of the deposited data

How the results depend on the processing

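The comparisons between populations were stable in direction: of the named genes against *Eomes*=0 cycling nuclei 296 values kept their direction and side of the threshold over the alternatives, 2 lost the call and 2 reversed (*Dlc1* 0.22 and *Ets1* 1.73, both with *Pax6* required in the comparison nuclei), and against non-cycling intermediate progenitors all 280 did. Counts of genes ranged from 1917 without the library block to 3284 in the first and from 2760 to 5255 in the second. Without composition scaling, chosen after seeing the data, the split was 1060 higher and 1565 lower in the first and 2223 and 1551 in the second.

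The genotype count of 2 depended on the settings. It was 277 with no low-count filter, 27 with DESeq2, and 0 in edgeR without called doublets (680 at an unadjusted p under 0.05), with the range on reads (548), with gates of at least 3 (562) or at least 1 (920), in the depth window (610) and with batch as a covariate (389). With the replicate block it was 0 (560 at an unadjusted p under 0.05, smallest adjusted p 0.060). Same-numbered libraries also share which of *Xist* and *Uty* is high, so that block takes up this difference too. Leaving out 1 library gave 0 (either Control) to 88, with 78 without *Dnmt1* KO replicate 2. For the interaction the count was 82 with no filter and 0 to 3 on leaving out a library, with 3 without Control replicate 1. For list genes by genotype it was 11 with no filter, 1 with DESeq2 and 0 to 5 on leaving out a library. *Rgs6* by genotype reversed to -0.36 with gates of at least 1, and *Opcml* in the interaction to -0.48 without called doublets. The difference in the share of retained nuclei was 0.0731 points without Control replicate 2 (range -0.594 to 0.0731 over single libraries left out). In the share of members among cycling nuclei with at least 2 or no *Eomes* transcripts it was -13.25 to -3.30 points. In the cycling share of intermediate progenitors it was 0.193 points without *Dnmt1* KO replicate 1 (range -6.95 to 0.193). The cause of these changes was not tested. The genotype tests rest on 969880 to 1796164 member transcripts per library and 2 libraries per genotype.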

Other observations

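The exclusion of *Gad1* and *Gad2* removed 73 nuclei that met every other part of the rule (11 and 27 from the *Dnmt1* KO libraries, 19 and 16 from the Control libraries). Their median was 20705 transcripts. Their intermediate progenitor genes summed to 333 CPM and their radial glia genes to 2219 CPM, with *Neurog2* at 25.5 CPM, *Pax6* at 141 CPM and *Dcx* at 499.6 CPM. The intermediate progenitor sum of the cycling intermediate progenitors was 385 to 473 CPM and their radial glia sum 1886 to 3223 CPM.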
